A study of Mus musculus with 25 samples.

Results

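The genes described here are 8 genes of the unfolded protein response: Xbp1, Hspa5, Hsp90b1, Pdia4, Dnajb9, Herpud1, Atf4 and Ddit3. They were taken by name, as all probes annotated to them on the array, by a rule that used no measured value. The set was nevertheless chosen with earlier results of these data known. They were covered by 12 of the 46237 probes, all 12 passed the filter on detection, and they made up 8 of the 15533 genes that were tested. Atf4, Ddit3, Dnajb9 and Herpud1 had 2 probes each and the other members 1. The brighter probe stood for the gene and was detected on all 25 arrays for every member except Dnajb9, for which it was detected on 24.

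The endoplasmic reticulum (ER) folds secreted and membrane proteins, and the unfolded protein response is the set of signals it sends when unfolded chains accumulate. The sensor IRE1alpha, encoded by Ern1, cuts the Xbp1 transcript so that an active transcription factor is made. The sensor PERK slows translation while favouring that of ATF4, and ATF6 is released by proteases and moves to the nucleus. Their targets include ER chaperones, components that carry misfolded proteins back to the cytosol for degradation, and the transcription factor CHOP, encoded by Ddit3. In lymphocytes XBP1 is best known for its need in plasma cells, and thymocytes pass through stages at which new receptor chains are made and assembled in the ER.

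The study measured RNA of immature mouse thymocytes on Illumina bead arrays, with 25 samples on 25 arrays of 5 chips. Young cells (n = 6) were the hosts' own cells of the C57BL/6 strain with the CD45.2 marker, at the stages the labels call TN2/3. Old cells with competition (n = 6) were of donor origin, of the B6/Ly5.1 strain with CD45.1, and came from wild type hosts that the labels term competitive. Old cells without competition (n = 9) were of donor origin from F1(WB x B6/Ly5.1) mice and came from non-competitive hosts that carried Rag2-/-, γc-/- and KitW/Wv. The samples of these 3 groups were labelled as lacking CD4, CD8 and CD3 and carrying CD25. Reference samples of wild type B6/Ly5.1 mice were labelled TN2 (n = 2, with CD44) and TN3 (n = 2, without it). No ages or times were given, and 1 sample of old cells without competition had no cell type label. Strain, CD45 allele and host therefore changed together with the group, and since the labels are silent on whether each sample of a group is a mouse of its own, the p-values speak of the spread between these samples. Chips 2 and 4 each held 3 young arrays and 3 arrays of old cells with competition. Old cells without competition were on chips 1 and 5 and shared no chip with either group. In bulk samples such as these, fewer cells of a type and less RNA per cell cannot be told apart.

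The labelled stages were checked against marker genes. Cd44 and Kit were lower in TN3 than in TN2 and Cd3d, Rag1 and Ptcra higher, each past the test, although the calls of Kit and Ptcra were lost without some single TN2 or TN3 arrays. Il2ra, which encodes the CD25 used to define the cells, was dim: its probe was detected on all 6 young arrays, 5 of the 6 arrays of old cells with competition, 5 of 9 of old cells without competition, both TN2 arrays and neither TN3 array. Array 6 of old cells with competition stood apart, with 1617 genes more than 1 log2 unit from its group's mean against 31 to 78 on the other arrays of the group. The summed level of 10 TN2 and TN3 stage markers was 5366 on it and 3030 to 3871 on the others. The summed level of the 3 measured double-positive thymocyte markers was 684 on it and 270 to 314 on the others. Results that rest on this group are given with and without array 6.

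The promoters are shown because the members differ in exact matches to elements that the response is known to use. All 8 genes matched a RefSeq window of 300 bases, running from 250 bases before the start to 50 after it (build GRCm38.p6). They were searched on both strands for the ER stress response element ERSE (CCAAT and CCACG with 9 open bases between them), for ERSE-II (ATTGG and CCACG with 1 open base between them), for the core of the XBP1 element (TGACGTGG) and for the composite element bound by ATF4 with C/EBP proteins (TTGCATCA). Of the 32851 windows in the table, ERSE was found in 0.119%, ERSE-II in 0.0365%, TGACGTGG in 0.676% and TTGCATCA in 0.895%. Windows of 3 members held a match. Capitals mark it in the 3 sequences that follow, of Hspa5 (chr2:34771840-34772139 on the plus strand), Hsp90b1 (chr10:86705395-86705694 on the minus strand) and Herpud1 (chr8:94386179-94386478 on the plus strand).
Hspa5: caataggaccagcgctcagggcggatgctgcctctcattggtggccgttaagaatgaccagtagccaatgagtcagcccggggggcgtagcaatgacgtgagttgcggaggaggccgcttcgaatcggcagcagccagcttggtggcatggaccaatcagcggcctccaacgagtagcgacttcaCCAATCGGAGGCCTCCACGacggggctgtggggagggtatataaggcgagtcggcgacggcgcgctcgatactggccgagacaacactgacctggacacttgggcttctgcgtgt
Hsp90b1: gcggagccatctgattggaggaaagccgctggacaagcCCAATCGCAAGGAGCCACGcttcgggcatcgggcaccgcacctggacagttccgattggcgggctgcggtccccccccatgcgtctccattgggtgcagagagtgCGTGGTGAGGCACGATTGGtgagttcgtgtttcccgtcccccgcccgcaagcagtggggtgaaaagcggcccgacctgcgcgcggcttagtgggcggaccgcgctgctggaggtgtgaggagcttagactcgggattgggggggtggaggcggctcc
Herpud1: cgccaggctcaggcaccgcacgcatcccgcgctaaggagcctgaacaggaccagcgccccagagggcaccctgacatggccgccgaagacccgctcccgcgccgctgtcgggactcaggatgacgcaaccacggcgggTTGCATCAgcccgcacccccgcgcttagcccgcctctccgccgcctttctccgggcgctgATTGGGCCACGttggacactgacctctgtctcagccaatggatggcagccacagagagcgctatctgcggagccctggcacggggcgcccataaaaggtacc

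The Hspa5 match to ERSE lay 65 to 47 bases before the start. Hsp90b1 had 2 matches, on opposite strands, beginning 212 and 107 bases before it. In Herpud1, ERSE-II began 52 bases and TTGCATCA 112 bases before the start. The 3 members that were called lower in old cells without competition than in young ones were Xbp1, Dnajb9 and Herpud1, of which Xbp1 alone was also called with competition. The windows of Xbp1 and Dnajb9, at chr11:5520391-5520690 on the plus strand and chr12:44210019-44210318 on the minus strand, held none of the 4 motifs and have no capitals.
Xbp1: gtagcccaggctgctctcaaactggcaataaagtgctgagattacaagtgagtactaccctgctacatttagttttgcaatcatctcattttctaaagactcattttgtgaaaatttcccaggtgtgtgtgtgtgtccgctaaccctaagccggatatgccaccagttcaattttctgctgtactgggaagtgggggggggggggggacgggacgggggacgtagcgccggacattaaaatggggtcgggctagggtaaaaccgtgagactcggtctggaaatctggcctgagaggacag
Dnajb9: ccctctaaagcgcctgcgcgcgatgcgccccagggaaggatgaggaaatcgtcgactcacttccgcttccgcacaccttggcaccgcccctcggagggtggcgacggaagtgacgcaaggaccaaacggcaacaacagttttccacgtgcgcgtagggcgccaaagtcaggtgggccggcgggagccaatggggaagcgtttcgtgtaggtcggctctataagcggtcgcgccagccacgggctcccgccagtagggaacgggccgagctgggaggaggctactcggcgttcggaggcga

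The windows of Atf4, Ddit3 and Pdia4 held none of the 4 motifs either. The short box CCACG, which is also the end of ERSE and ERSE-II, occurred in 32.8% of all windows. It was found at 2 places in Dnajb9 and in Atf4, at 1 place in Pdia4 and in no window of Xbp1 or Ddit3. A match describes letters in this window and shows no binding. Only exact letters within the window were searched, so a window without a match does not show that the gene lacks such an element.

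Levels are log2 intensities after background correction and quantile normalization, and they are compared between groups for 1 gene at a time, never between genes. Xbp1 encodes the transcription factor that IRE1alpha activates. The sources used here do not place its probe relative to the spliced-out piece, so which of the spliced and unspliced transcripts it reads is not known here. Its level on the 6 young arrays ran from 7.96 to 8.42, with a median of 8.20. On the 6 arrays of old cells with competition it ran from 6.90 to 7.96 (median 7.32), and on the 9 arrays of old cells without competition from 7.02 to 7.96 (median 7.63). The TN2 arrays read 7.01 and 7.63, and the TN3 arrays 7.86 and 7.90. Every young array thus lay above every array of either old group, but only just: the gap was 0.0054 to old cells with competition, whose highest array was array 6, and 0.00092 to those without.

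**Figure D1:**
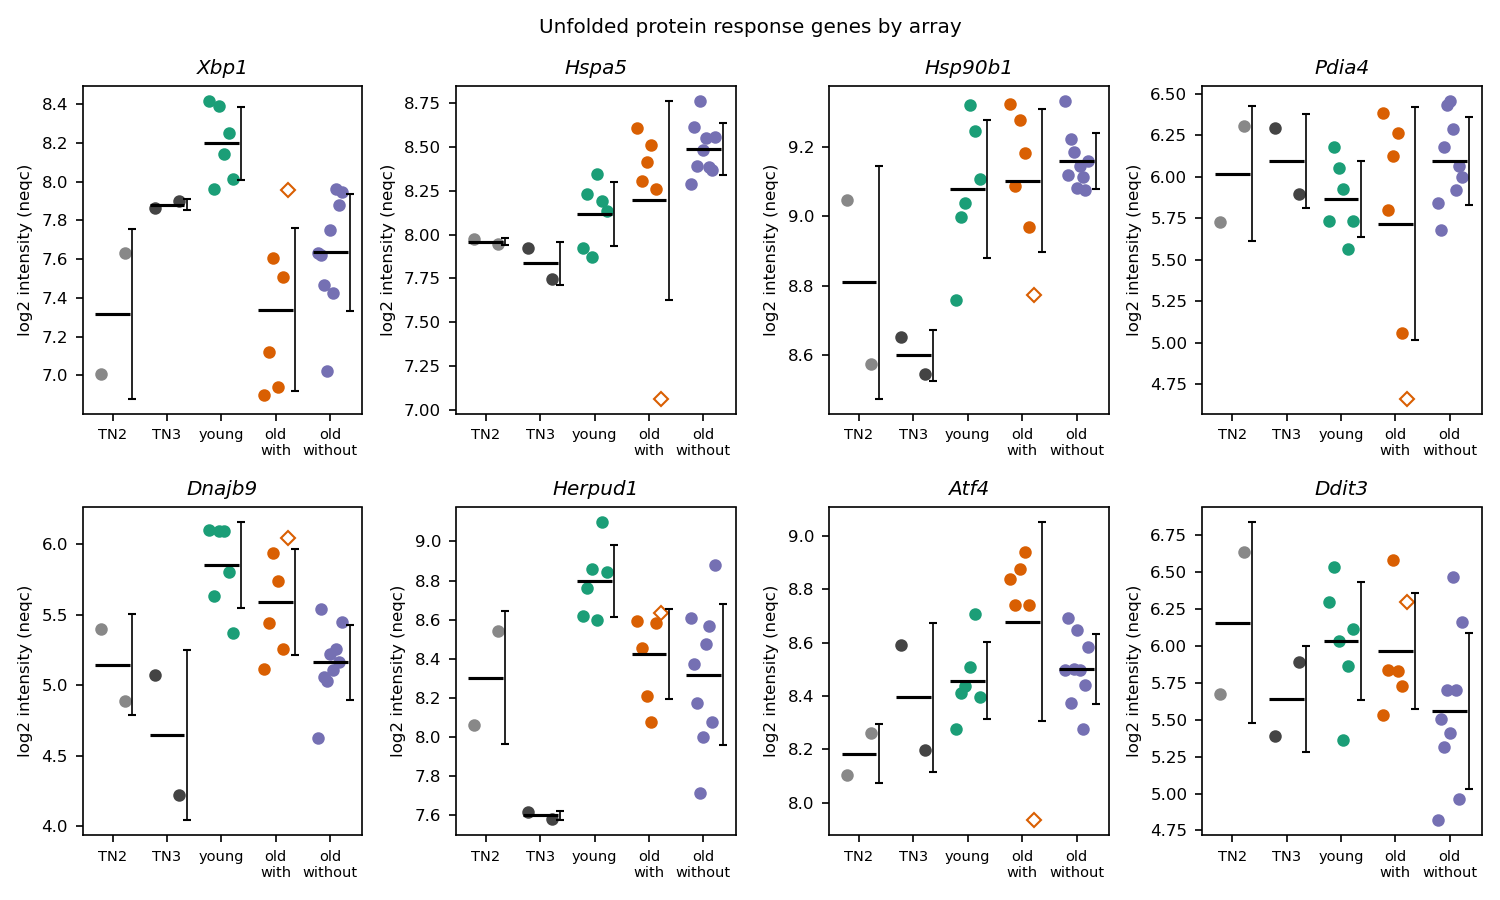
Log2 intensity (vertical axis) of each member on each of the 25 arrays, by group; points are arrays, the horizontal line is the group mean, the bar beside it the SD, and the open diamond is array 6 of old cells with competition. Xbp1 shows the 6 young arrays above all arrays of both old groups, and the diamond is the lowest point of its group for Hspa5, Hsp90b1, Pdia4 and Atf4.

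Of the chaperones and folding enzymes, Hspa5 encodes BiP, the main Hsp70 chaperone of the ER lumen. It read 7.97 and 7.95 in TN2, 7.92 and 7.75 in TN3, and 7.87 to 8.35 in young cells (median 8.16). Old cells with competition ran from 7.07 on array 6 to 8.60 (median 8.36), and old cells without competition from 8.29 to 8.76 (median 8.48). The last group lay above every TN2 and TN3 array and overlapped with the young arrays. Hsp90b1 encodes GRP94, the Hsp90 chaperone of the ER, and it had the narrowest spread of the members among old cells without competition, at 9.16 ± 0.08 (mean ± SD, n = 9). Its TN3 arrays, at 8.65 and 8.55, lay below every array of old cells and every young array (8.76 to 9.32). The TN2 arrays read 9.05 and 8.57. Pdia4, a protein disulfide isomerase of the ER, ran from 4.66 to 6.38 in old cells with competition, with array 6 lowest. Its range was 5.57 to 6.18 in young cells and 5.68 to 6.46 in old cells without competition, and its TN2 arrays (5.73 and 6.31) and TN3 arrays (6.29 and 5.90) fell among these. No group of Pdia4 stood clear of another.

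Dnajb9 encodes ERdj4, a co-chaperone of BiP that takes part in degradation of misfolded proteins. Its level was 5.37 to 6.10 in young cells (median 5.95), 5.11 to 6.04 in old cells with competition (median 5.59) and 4.63 to 5.54 in old cells without competition (median 5.16). The TN2 arrays read 5.40 and 4.89 and the TN3 arrays 5.07 and 4.22. Both old groups overlapped with the young one, and the TN3 arrays lay below all young arrays. Herpud1 encodes HERP, an ER membrane protein that joins the complex for degradation. It ran from 8.60 to 9.10 in young cells (median 8.80), 8.08 to 8.63 in old cells with competition (median 8.52) and 7.71 to 8.88 in old cells without competition (median 8.37). The TN2 arrays read 8.06 and 8.54, and the TN3 arrays, at 7.62 and 7.58, were the lowest of all 25.

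Atf4 is the transcription factor of the PERK branch. It read 8.10 and 8.26 in TN2, 8.59 and 8.20 in TN3, 8.28 to 8.71 in young cells and 8.28 to 8.69 in old cells without competition. In old cells with competition array 6 read 7.93 and the other 5 arrays 8.74 to 8.94, so that these 5 lay above every other array of the series. Ddit3 encodes CHOP, a transcription factor of prolonged ER stress. It ran from 5.36 to 6.53 in young cells, 5.53 to 6.58 in old cells with competition and 4.82 to 6.46 in old cells without competition, with TN2 at 5.67 and 6.63 and TN3 at 5.39 and 5.89. The ranges of Ddit3 overlapped between all 5 groups.

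The first comparison asked how old cells taken from hosts with competition differed from the young cells of such hosts. Of the 8 members, 1 fell, 0 rose and 7 did not pass the test (limma with Benjamini-Hochberg adjustment over all 15533 genes, called at an adjusted p under 0.05). Xbp1 fell by 0.86 ± 0.18 on the log2 scale (SE, adjusted p = 0.00539), which is 1.81-fold lower in old cells with competition, and it was below the young mean on 6 of 6 arrays. Over all genes 2.92% were called and 2.5% were called lower. Groups did not overlap for 2.65% of all genes, and for 2.16% with the old cells lower, against 1 of 8 members in both counts. The median change of the members was -0.11 and that of all genes 0.0048. With array 6 left out Xbp1 fell by 0.98 (adjusted p = 0.000844), and over the removal of each single array the change stayed between -0.98 and -0.77 with adjusted p up to 0.0189. Within chip 2 the change was -0.76 (adjusted p = 0.636) and within chip 4 it was -0.96 (adjusted p = 0.0894), with 3 arrays a group on each chip.

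The members that missed the threshold had these changes in old cells with competition against young cells. Herpud1 differed by -0.37 (95% interval -0.70 to -0.04, adjusted p = 0.329) with no array above the young mean, and its second probe by -0.42. Dnajb9 differed by -0.26 (interval -0.65 to 0.12) and Pdia4 by -0.15 (interval -0.62 to 0.33). Hsp90b1 had the narrowest interval, -0.19 to 0.24 around 0.02, and Hspa5 spanned -0.29 to 0.44 around 0.08. The 2 probes of Ddit3 disagreed in sign, at -0.07 and 0.41, neither of them called. Atf4 differed by 0.22 (interval -0.05 to 0.49, adjusted p = 0.598) and its second probe by 0.68 (adjusted p = 0.556). Without array 6, Atf4 was higher by 0.37 ± 0.09 and called (adjusted p = 0.0235), and Hspa5 was higher by 0.30 ± 0.10 and not called (adjusted p = 0.101).

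**Figure D2:**
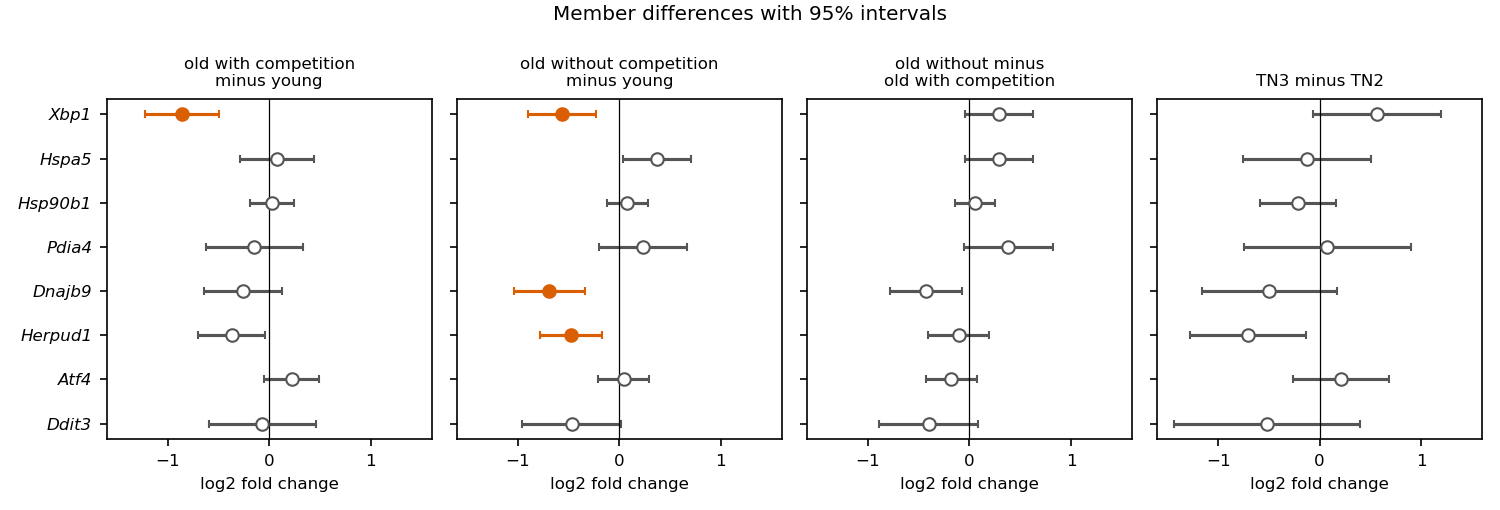
Log2 fold change (horizontal axis) of each member in 4 comparisons; points are estimates from the model, bars their 95% intervals, and filled orange points passed the test. Xbp1 is filled in both comparisons of old with young cells, Dnajb9 and Herpud1 in that of old cells without competition, and no point is filled for the 2 old groups or for TN3 against TN2.

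Old cells without competition against young cells gave 3 lower members, 0 higher and 5 that did not pass the test, where 8.93% of all genes were called and 5.76% were called lower. Dnajb9 fell by 0.69 ± 0.17 (SE, adjusted p = 0.0116), a level 1.61-fold lower, and was below the young mean on 9 of 9 arrays. Its second probe fell by 0.67 (adjusted p = 0.0167 over probes). Xbp1 fell by 0.56 ± 0.16 (adjusted p = 0.0291), or 1.48-fold, and Herpud1 by 0.48 ± 0.15 (adjusted p = 0.0422), or 1.39-fold. With arrays scaled to a common median the changes were -1.10 for Dnajb9, -1.13 for Xbp1 and -1.02 for Herpud1, all called, where the median change of all genes was -0.17. Without background correction Dnajb9 changed by -0.26 and was called. Groups did not overlap for 1 of the 8 members, Xbp1, and for 3.2% of all genes, 2.14% with the old cells lower. Dnajb9 passed without any single array, with adjusted p up to 0.033. Xbp1 did not pass without array 1, 3 or 5 of the young cells or array 3, 4 or 6 of old cells without competition (changes of -0.55 to -0.49, adjusted p up to 0.0694). Herpud1 did not pass without array 2, 3, 5 or 6 of the young cells or array 2, 3, 4, 5 or 8 of the old ones (changes of -0.49 to -0.40, adjusted p up to 0.111), and its second probe differed by -0.38 (adjusted p = 0.328).

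The 5 other members in this comparison include chaperones whose estimates lay above 0. Hspa5 differed by 0.37 (95% interval 0.04 to 0.70, adjusted p = 0.177) and was above the young mean on 9 of 9 arrays. Array 6 of old cells with competition, which is in neither group, entered the spread that all groups shared: without it the same change of 0.37 had an SE of 0.09 and was called (adjusted p = 0.0065). With arrays scaled to a common median it was -0.17 (adjusted p = 0.666). Pdia4 differed by 0.23 (interval -0.20 to 0.67), Hsp90b1 by 0.08 (interval -0.12 to 0.28) and Atf4 by 0.04 (interval -0.21 to 0.30). Ddit3 differed by -0.47 on the brighter probe (interval -0.96 to 0.02, adjusted p = 0.254) and by 0.16 on the other. No chip held both groups, so chip and group cannot be told apart here; on chips 1 and 5 the mean of Xbp1 in old cells without competition was 7.75 (n = 6) and 7.40 (n = 3), that of Dnajb9 5.18 and 5.12, and that of Herpud1 8.45 and 8.06. Both comparisons with young cells used the same 6 young arrays.

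The 2 old groups were compared directly, and 0 of the 8 members passed the test, by limma with Benjamini-Hochberg adjustment, where 1.24% of all genes did. At an unadjusted p under 0.05, where 13.1% of all genes were counted, 1 of the 8 members was, Dnajb9, which was lower without competition by 0.43 (95% interval -0.78 to -0.07, adjusted p = 0.259). Xbp1 differed by 0.29 (interval -0.04 to 0.63, adjusted p = 0.454) and Herpud1 by -0.11 (interval -0.41 to 0.20). A difference in the size of the fall of Xbp1 between the groups was therefore not shown. Without array 6, Atf4 was 0.33 lower without competition (adjusted p = 0.0517), and Hspa5 differed by 0.07 in place of 0.29. When arrays were scaled to a common median in place of quantile normalization, 4 members were called lower without competition, Atf4, Ddit3, Dnajb9 and Herpud1, where the median change of all genes was -0.20. This count stands without the share of all genes called under that scaling, and is not read as a trait of the members.

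Between the reference stages, TN3 against TN2, 0 of 8 members passed where 1.17% of all genes did, and 1 had an unadjusted p under 0.05, as had 10.9% of all genes. That member was Herpud1, lower in TN3 by 0.70 (95% interval -1.28 to -0.13, adjusted p = 0.309). TN2 and TN3 had 1 array each on chips 3 and 5, and within these Herpud1 differed by -0.96 and -0.45. Groups did not overlap for 3 members, Xbp1, Hspa5 and Herpud1, against 37.3% of all genes with 2 arrays a group. Xbp1 differed by 0.56 (interval -0.07 to 1.19), Dnajb9 by -0.50 (interval -1.16 to 0.17) and Hspa5 by -0.12 (interval -0.75 to 0.50). The Ddit3 probes disagreed again, at -0.52 and 0.83. With 2 arrays on each side these intervals are wide and changes in either direction lie inside most of them.

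The reference stages placed the 3 other groups. Neither young cells nor old cells with competition shared a chip with TN2 or TN3, so chip and group cannot be told apart in their comparisons. Young cells and old cells without competition also differed from the reference samples in the labelled strain. Against TN3, young cells had 2 members higher where 3.67% of all genes were called and 2.49% called higher: Herpud1 by 1.20 ± 0.23 (adjusted p = 0.00394) and Dnajb9 by 1.20 ± 0.26 (adjusted p = 0.0101), and both were above TN3 on 6 of 6 arrays. The same members were higher in old cells with competition, Herpud1 by 0.82 (adjusted p = 0.0421) and Dnajb9 by 0.94 (adjusted p = 0.046), where 3.78% of all genes were called and 2.3% called higher. For the second probe of Herpud1 the difference was 0.71 for the young arrays and 0.29 for those of old cells with competition, neither called. For that of Dnajb9 it was 1.01, called, and 0.61, not called. Under scaling to a common median Herpud1 was 2.04 and 1.68 higher. Without background correction Dnajb9 was 0.41 higher in young cells, called, and 0.31 higher in old cells with competition, not called. Herpud1 was then 0.64 higher in old cells with competition, also not called (limma, adjusted p = 0.0505). Under array weights neither member was called in old cells with competition (limma, adjusted p = 0.0787 for Herpud1 and 0.0995 for Dnajb9). Without array 2 of TN3 neither passed in either group, with Dnajb9 at 0.77 and 0.51 and adjusted p of 0.337 and 0.668. The calls of old cells with competition were lost on leaving out any of 8 single arrays for Herpud1 and any of 15 for Dnajb9. In old cells without competition Hsp90b1 was the called member, higher than TN3 by 0.56 ± 0.14 (adjusted p = 0.0374; 2.36% of all genes called, 1.11% higher). That call was lost without either TN3 array, without array 1, 3 or 4 of the old cells, with chip as a fixed block (0.39) and under median scaling (0.93). Against TN2 no member passed in the young cells (1.47% of all genes called), in old cells with competition (5.29%) or in those without (4.87%), and Xbp1 came closest, 0.88 higher in young cells (adjusted p = 0.0863). At an unadjusted p under 0.05 these comparisons had 3, 1 and 2 of the 8 members, beside 11.9%, 17.0% and 17.4% of all genes.

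When the 5 groups were placed in order of their mean level, none of the 32 pairs of neighbours over the 8 members passed the test. Neighbours in such an order are the closest groups by construction. The count thus says only that single steps of the orders below were not resolved. Xbp1 ran, from high to low, young, TN3, old without competition, old with competition, TN2. Herpud1 and Dnajb9 both ran young, old with competition, old without competition, TN2, TN3, so that TN3 was second highest for Xbp1 and lowest for these 2 degradation genes. Hspa5 and Hsp90b1 had another order, old without competition, old with competition, young, TN2, TN3. For Atf4 old cells with competition were highest and TN2 lowest, for Ddit3 TN2 was highest and old cells without competition lowest, and for Pdia4 old cells without competition were highest and those with competition lowest. Without array 6 the mean of old cells with competition was 7.22 for Xbp1, below the 7.32 of TN2, and 9.17 for Hsp90b1, above the 9.16 of old cells without competition. For Pdia4 it was then 5.93, above the 5.86 of young cells, which were lowest. The orders of the other 5 members were the same without array 6.

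Genes around the members were read from lists of the same pathway. Against young cells, 2.92% of all genes were called with competition and 8.93% without. Among the sensors and the proteases that release ATF6, 7 of 8 genes were measured and 1 fell in both old groups, Ern1, which encodes IRE1alpha, the enzyme that splices Xbp1. Ern1 stood at 7.56 to 8.32 in young cells (median 7.81), 5.42 to 7.51 in old cells with competition (median 6.72) and 6.35 to 7.67 in old cells without competition (median 6.63), with TN2 at 7.06 to 8.08 and TN3 at 7.56 to 7.58. All arrays of old cells with competition lay below all young arrays, and the other old group overlapped with them. It fell by 1.22 ± 0.28 with competition (adjusted p = 0.0119), 2.34-fold, and by 1.05 ± 0.25 without (adjusted p = 0.01), 2.07-fold, and both calls stood whichever single array was left out. Within chips 2 and 4 the change with competition was -1.49 and -0.96, not called in either. It was -0.79 without background correction and -0.77 with the probes averaged, both called, and the change without competition was -1.62 under median scaling. The 2 other probes of Ern1 differed by -0.78 and -0.32 with competition and by -0.71 and -0.39 without, none of them called. Eif2ak3, which encodes PERK, differed by 0.24 and 0.04 and Atf6b by 0.06 and 0.03, and neither was called.

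**Figure D3:**
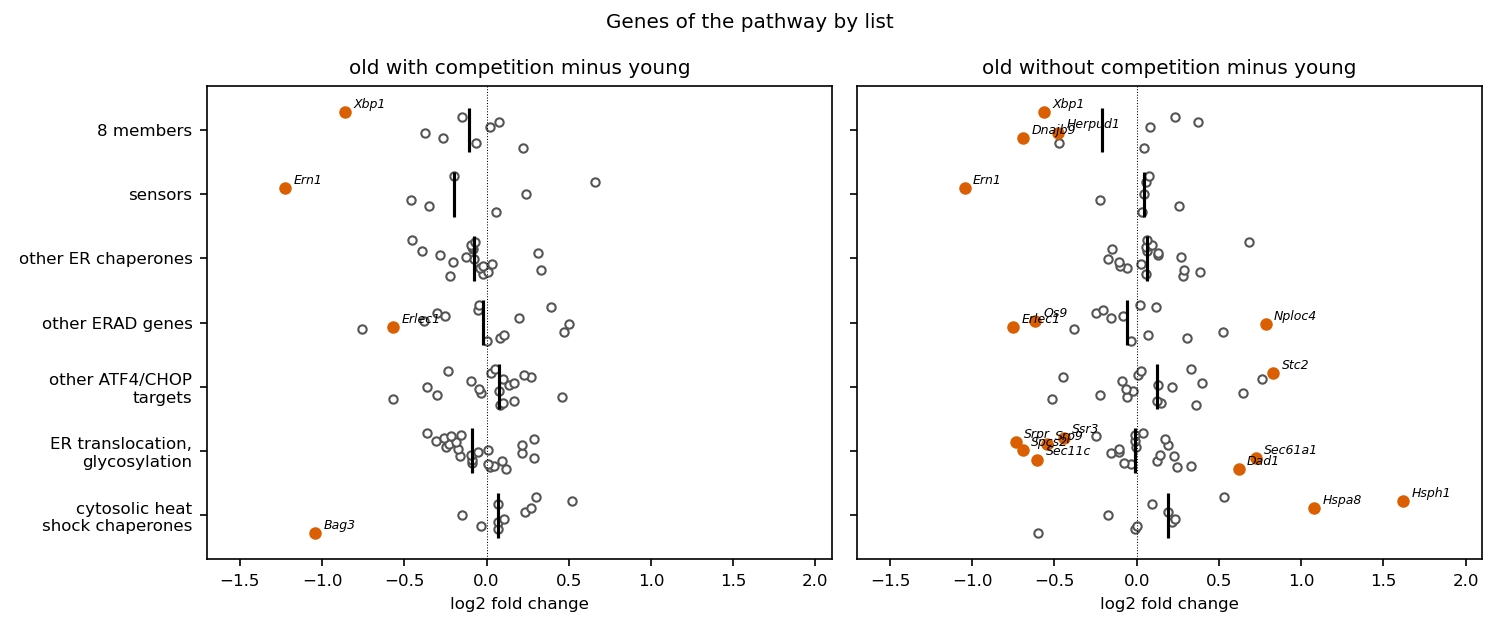
Log2 fold change (horizontal axis) of each measured gene of the pathway lists, in old cells with competition (left) and without (right) against young cells; orange points passed the test and are named, and vertical bars are list medians. Ern1 lies at -1.22 on the left and -1.05 on the right, and the ER chaperones have no orange point in either panel.

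None of the 18 measured ER chaperones and folding enzymes beside the members passed in either comparison with young cells, by limma with Benjamini-Hochberg adjustment, and their median change was -0.08 with competition and 0.06 without, where the median of all genes was 0.0048 and 0.02. At an unadjusted p under 0.05, 2 of them were counted in each, beside 11.6% and 21.4% of all genes. Among 14 genes of ER-associated degradation, old cells without competition had 2 lower and 1 higher, where 8.93% of all genes were called. Erlec1, an ER lectin, fell by 0.75 ± 0.14 (adjusted p = 0.00137) and Os9, another lectin that hands over misfolded glycoproteins, by 0.62 ± 0.16 (adjusted p = 0.0178). Nploc4, a cofactor of the p97 ATPase, rose by 0.79 ± 0.21. Without array 4 of the young cells Os9 did not pass, nor did Nploc4 without array 5 or 6 or with arrays scaled to a common median (0.25, adjusted p = 0.502). That scaling put Erlec1 at -1.32 and Os9 at -1.15, and without background correction Os9 changed by -0.32 and Nploc4 by 0.41, all of them called. With competition Erlec1 was the 1 gene called in this list, lower by 0.57, and the call was lost on leaving out any of 18 single arrays, without the detection filter, without the chip block, with probes averaged, with these groups fitted alone and within chip 2.

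Of 19 further ATF4 and CHOP targets and eIF2alpha phosphatase subunits, 0 passed with competition by limma (0 at an unadjusted p under 0.05) and 1 without, where Stc2, a secreted glycoprotein, rose by 0.83 ± 0.22 (adjusted p = 0.019), and by 0.27 without background correction, also called. Their median change was 0.07 and 0.12. The list of ER translocation and N-glycosylation, with 24 measured genes, had 0 called with competition (4 at an unadjusted p under 0.05) and 2 higher and 5 lower without. Over all genes 2.92% were called with competition (11.6% at an unadjusted p under 0.05) and 8.93% without. Sec61a1, the channel of the translocon, rose by 0.73 ± 0.10 (adjusted p = 4.17e-05) and Dad1, a subunit of the oligosaccharyltransferase, by 0.62 ± 0.12, although its second probe differed by 0.19 and was not called. Sec11c, a catalytic subunit of the signal peptidase, fell by 0.60 ± 0.10 and Ssr3, a translocon-associated subunit, by 0.44 ± 0.10. Direct comparison of the old groups called 4 genes of this list, where 1.24% of all genes were called. Sec61a1 (0.43) and Dad1 (0.50) were higher without competition, Sec11c (-0.51) and Spcs2 (-0.70), another signal peptidase subunit, lower. The call of Sec11c stood without any single array, and those of Sec61a1, Dad1 and Spcs2 were lost on leaving out any of 6, 9 and 10 arrays, and that of Spcs2 also without background correction (-0.20). The second probe of Dad1 differed by 0.16 between the old groups, not called, and the call of Dad1 there was lost with its probes averaged (0.33) and with the groups fitted alone (0.49). Scaling to a common median put Sec61a1 and Dad1 at 0.17 and 0.090 against young cells and at -0.13 and -0.032 between the old groups, none of them called. It put Sec11c and Ssr3 at -1.15 and -0.84 against young cells and Sec11c at -1.05 between the old groups, all called. Without background correction Sec61a1 stood at 0.45 and 0.28 in these comparisons and was called in both.

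Cytosolic heat shock chaperones, which serve another compartment, were read beside them. Of 11 measured genes, 1 fell with competition, Bag3, a co-chaperone of Hsp70, by 1.04 ± 0.25 (adjusted p = 0.0223), and without array 2 of the young or array 2 of the old cells it did not pass. Its change was -0.999 within chip 2 and -1.08 within chip 4, not called in either, and -0.33 without background correction, called. Without competition 2 rose: Hsph1, an Hsp110 chaperone, by 1.62 ± 0.30 (adjusted p = 0.000886) and Hspa8, the constitutive Hsp70, by 1.08 ± 0.26 (adjusted p = 0.00957), whose 2 other probes differed by 0.15 and 0.14, whose mean over probes rose by 0.46, called, and which did not pass with arrays scaled to a common median (0.69, adjusted p = 0.0996). No gene of these 6 lists, 93 measured genes in all, passed in TN3 against TN2 by limma, and 9 had an unadjusted p under 0.05, beside 10.9% of all genes. Array 6 of old cells with competition changed several of these counts. Without it, 4.21% of all genes were called with competition against young cells, and the lists had 1 higher gene among ATF4 targets and 3 higher and 1 lower among cytosolic chaperones. Without competition 12.5% of all genes were then called, with 1 higher ER chaperone, 4 higher ATF4 targets, 3 higher and 5 lower translocation genes and 3 higher cytosolic chaperones.

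Markers listed for other cell types were read in the same comparisons. Some of them also differed between the reference stages: Tyrobp, Mpo, Itgax, Cpa3, Hbb-b1 and Nfe2 were called lower in TN3 than in TN2. The calls of Itgax, Hbb-b1 and Nfe2 were lost without some single TN2 or TN3 arrays. Of 9 measured myeloid and dendritic markers, 6 fell in both old groups against young cells, and their summed level lay between 443 and 852 in young cells. It lay between 179 and 204 with competition and between 189 and 263 without, and at 680 to 843 in TN2 and 288 to 329 in TN3. Mpo was detected on 6 of 6 young arrays, 2 of 6 with competition and 0 of 9 without. Of 8 mast cell and erythroid markers, 4 fell in both, with summed levels of 816 to 1673 in young cells, 150 to 269 and 154 to 426 in the old groups, 2098 to 2356 in TN2 and 213 to 264 in TN3. Among stage markers, Kit, Cd44 and Il2ra had changes of -2.28, -1.20 and -0.67 with competition and of -2.12, -1.13 and -0.88 without, all past the test, although Il2ra with competition did not pass without array 4, 5 or 6 of the young cells or array 5 or 6 of the old ones. Ptcra, of the same list, was higher by 1.07 without competition (adjusted p = 0.0037) and differed by 0.32 with it, not called. Thymic epithelial markers were measured for 4 of 6 genes and none was called. Double-positive markers had 0 of 3 called with competition and 1 lower without. Of B cell and plasma cell markers 3 of 7 were measured and none was called, and Jchain, which plasma cells express at a high level, was detected on 2 young arrays, 0 with competition and 1 without. The part of these cell types, or of the mix of TN2 and TN3 stages, in the changes of Xbp1, Ern1, Dnajb9 and Herpud1 was not tested.

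The members did not move as 1 block from array to array. After group means were removed, Pearson's r over 25 arrays was 0.85 between Hspa5 and Atf4, 0.60 between Hspa5 and Hsp90b1 and 0.69 between Hspa5 and Pdia4. Xbp1 went the other way, at -0.66 with Hspa5 and -0.55 with Hsp90b1, and had its highest value, 0.47, with Herpud1. Without array 6 these were 0.51, 0.44, 0.41, -0.57, -0.42 and 0.44 over 24 arrays, so that r between Hspa5 and Atf4 was lower without that array while the sign of Xbp1 against Hspa5 and Hsp90b1 did not change. Arrays of a group share their group, chips and normalization, and these values are descriptions with no test.

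**Figure D4:**
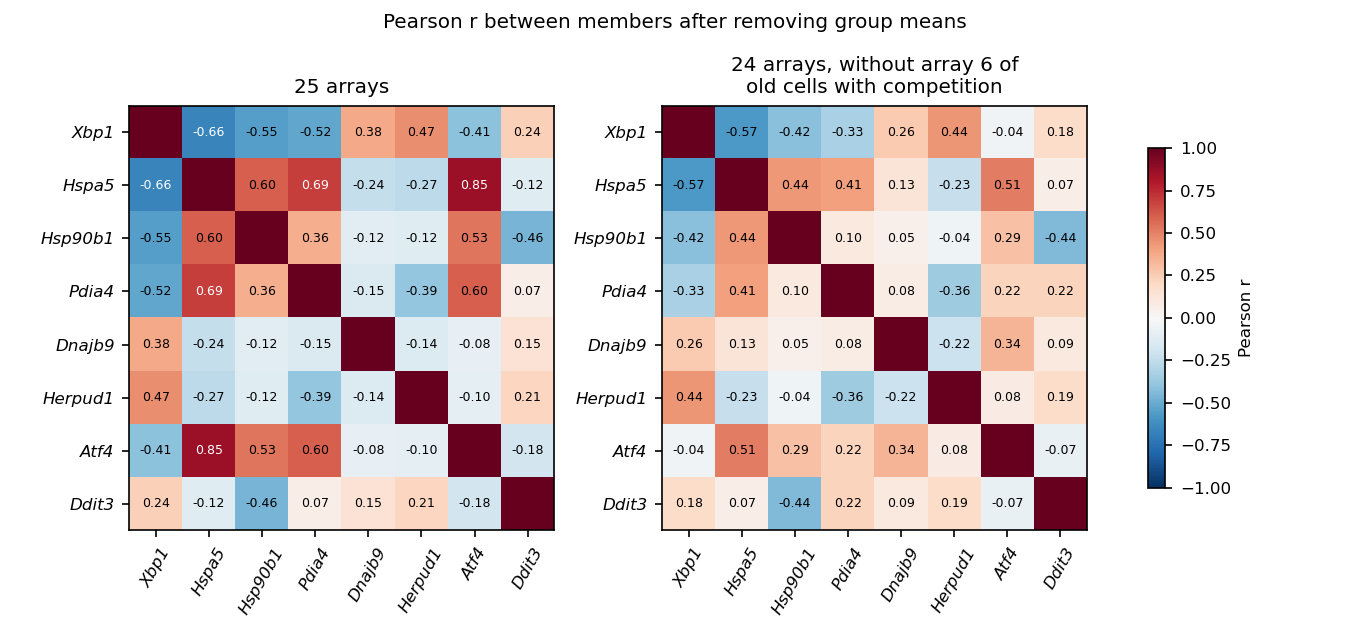
Pearson's r between members over arrays after group means were removed, with all 25 arrays (left) and with 24 (right, without array 6 of old cells with competition); colour gives r from -1 to 1. Hspa5, Hsp90b1, Pdia4 and Atf4 have positive r with each other in both panels, and Xbp1 has negative r with Hspa5 and Hsp90b1.

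Over all 15533 genes and 25 arrays, group means included, the 5 genes most like Hspa5 by Pearson's r were Lyar (0.90), Lss (0.90), Psat1 (0.90), Fignl1 (0.89) and Ybx1 (0.89). Without array 6 their r was 0.79 to 0.83. Psat1, an enzyme of serine synthesis, is also in the list of ATF4 targets. The 5 most like Ddit3 were Mgst1 (0.74), Zhx3 (0.72), Ube2d2b (0.70), EG382161 (0.65) and Mcu (0.64), with r of 0.62 to 0.73 without array 6.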

How the data were processed

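RNA of 25 thymocyte samples was isolated with RNAzol B and copied into biotinylated cRNA with the Ambion MessageAmp kit, per the labels' protocols. The authors' deposited table gave 46237 probes with a linear intensity for each array, neither background-subtracted nor scaled between arrays as its values show, and with a detection p-value beside each deposited intensity. How the detection p-values were computed, and which genome build and probe sequences underlie the array, is not stated by the labels or headers. A second table of log2 values was deposited by the authors; its arrays shared a median of 6.51 and followed the log2 intensities with a correlation of at least 0.995, and it served as an alternative.

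From the intensities, neqc of limma 3.58.1 (R 4.3.3) inferred the background from the detection p-values, added an offset of 16, quantile normalized the arrays and took log2. The offset draws dim genes toward a floor, so their fold changes are understated. Probes with a detection p-value below 0.05 on at least 3 arrays were kept, 30174 in all. The platform's annotation table gave 1 gene symbol to 35784 probes, several to 0 and none to 10453; 28620 were matched to current RefSeq genes by gene identifier and 2637 by accession. The kept probe with the highest mean over all arrays stood for a gene. A gene's probes are said to disagree where their signs differ.

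One limma model held all 25 arrays, with a mean per group, a random block for the chip named in the sample titles (correlation 0.00457 by duplicateCorrelation with statmod 1.5.0) and eBayes, so groups of 2 arrays shared the spread of all. Tests were two-sided, and the Benjamini-Hochberg adjustment ran over 15533 genes, or over kept probes for probe values. Errors are SE of the model or SD over arrays, intervals are 95%, and the number of arrays limits the precision. The model was also run on simulated arrays with independent noise, no chip effect and no outlying array. That run therefore does not show how the model behaves where such features are present. Between 41.1% and 50.1% of probes were detected on each array, and the share differed by group. It was 46.7% to 50.1% on young arrays and 46.8% to 49.4% on those of old cells with competition. Old cells without competition had 41.1% to 45.7%, TN2 43.9% to 44.6% and TN3 43.1% to 44.2%. The part of this in the differences between groups was not tested.

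The members and the lists of pathway genes and markers were chosen with earlier results of these data known. All 8 members are named in each comparison, up to 4 called genes of each pathway list by smallest adjusted p, and the 5 genes most correlated with Hspa5 and with Ddit3. Atf6b and Eif2ak3 are named outside that rule, as sensors, after their values were seen. Summed marker levels add linear values over a list. Alternatives covered background correction, normalization, the deposited log2 values, the filter, the probe rule, chip, the arrays fitted, array weights, the sample without a cell type label and single arrays left out, for which the chip correlation of all arrays was kept. A separate count of all lists without array 6 of old cells with competition was chosen after seeing the data. Fitted on their own 4 arrays, TN2 and TN3 gave no estimate of the chip correlation, and no block was used there. Figures were drawn with matplotlib 3.10.9.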

Additional observations from a re-analysis of the deposited data

Results flagged for a closer look

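Values were compared within each group of 4 to 10 arrays, for 8 members and 3 groups, 24 sets in all, of which chance would be expected to flag about 1 in 20. The sets of a group share their arrays and are not independent, so this rate cannot weigh flags that come from the same array. In 2 sets 1 array lay far from the others, and it was array 6 of old cells with competition both times. Hspa5 read 7.07 on it, against 8.26 on the nearest of the other arrays, a gap of 0.776 of the group's whole range. Atf4 read 7.93 on it, against 8.74 on the nearest, a gap of 0.801 of the range. The same array had high summed levels of stage and double-positive markers, and the part of these in its member levels was not tested.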

How the results depend on the processing

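Over all comparisons and named genes, 523 of 587 results under an alternative and 1269 of 1375 with a single array left out kept their direction and their side of the threshold; the cause of the rest was not tested. Members called in old cells with competition against young cells numbered 1, with 2 under array weights (Xbp1 and Atf4), 0 within chip 2 and 0 within chip 4, where 3 arrays a group were fitted, and 1 to 2 over single arrays left out (2 without array 6). In old cells without competition they numbered 3, and 1 to 4 over single arrays left out: 1 without array 3 or 5 of the young or array 3 or 4 of the old cells, and 4, Hspa5 added, without array 6 of old cells with competition. Hspa5 was also called under array weights and when the groups compared were fitted alone. Herpud1 was not called without the filter (adjusted p = 0.0542) or with the mean of its probes (adjusted p = 0.0641). Between the old groups the count of 0 became 4 under scaling to a common median and 1 (Atf4) under array weights, both given without the share of all genes called. Scaling to a common median took the median change of all genes from 0.02 to -0.17 without competition against young cells and from 0.02 to -0.20 between the old groups, and the share of called genes that were lower went from 64.5% to 97.1% and from 66.8% to 98.8%; with array weights it went from 85.7% to 65.2% with competition, where 1077 in place of 454 genes were called. Under this scaling, signs turned without competition against young cells for Hspa5 (-0.17), Hsp90b1 (-0.44), Atf4 (-0.49) and Pdia4 (-0.27), between the old groups for Xbp1 (-0.26), Hspa5 (-0.26), Hsp90b1 (-0.46), Pdia4 (-0.16), Sec61a1 (-0.13) and Dad1 (-0.032), and in TN3 against TN2 for Atf4 (-0.071) and Pdia4 (-0.10), while Ddit3 was called lower by 0.92 without competition. Other turned signs were, with competition against young cells, Hspa5 (-0.14) and Hsp90b1 (-0.063) within chip 2, Ddit3 with its probes averaged (0.17) and within chip 4 (0.0074), and Pdia4 under array weights (0.022) and within chip 4 (0.052); between the old groups Hsp90b1 under array weights (-0.017); and in TN3 against TN2 Ddit3 with its probes averaged (0.15). Over single arrays left out, the change with competition ranged from -0.0044 to 0.30 for Hspa5, -0.040 to 0.089 for Hsp90b1, -0.20 to 0.033 for Ddit3 and -0.28 to 0.062 for Pdia4, that of Hsp90b1 between the old groups from -0.0088 to 0.10, and in TN3 against TN2 from -0.45 to 0.026 for Hsp90b1 and -0.22 to 0.37 for Pdia4. For the reference stages, young against TN3 gave 2 members (6 under median scaling, 0 to 3 over single arrays) and young against TN2 0 (4, and 0 to 1). Counts under other settings, here and for the old groups against TN3 and TN2, stand without the matching share of all genes called. They are not read as traits of the members. Old with competition against TN3 gave 2, with 5 under median scaling, 1 without background correction, 1 without the filter, 1 with averaged probes, 1 under array weights, and 0 to 5 over single arrays, the 5 without its array 6. The 1 member called without background correction, and the 1 under array weights, was neither Herpud1 nor Dnajb9. Old with competition against TN2 gave 0, with 3 under median scaling, 1 under array weights and 0 to 2 over single arrays. Old without competition against TN3 gave 1, with 0 under median scaling, under a filter of 9 arrays, with chip as a fixed block, under array weights and without the sample lacking a cell type label, and 0 to 2 over single arrays; against TN2 it gave 0, and 0 to 1. TN3 against TN2 gave 0 members under every alternative, and, with its 4 arrays fitted alone, no gene at all (limma; 1311 genes at an unadjusted p under 0.05). No paired analysis was possible by replicate number because these were given in accession order. By the array positions in the sample titles, old cells with competition and young cells alternated on chips 2 and 4. TN2 and TN3 lay at neighbouring positions on chips 3 and 5. Whether neighbouring arrays shared a host is not known here, and no pairing by position was fitted. Chips could be blocked instead: TN2 and TN3 shared chips 3 and 5, young cells and old cells with competition chips 2 and 4, and with chip as a fixed block 0 members were called in TN3 against TN2 and 1, Xbp1, with competition against young. Dim probes, such as those of Dnajb9 and Ddit3, lie nearest to the background, where signal limits the precision.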
